A study of Mus musculus with 2 samples.

Results

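Mitogen-activated protein (MAP) kinases carry signals from the T cell receptor and from cytokine receptors through the ERK, JNK and p38 cascades. MAP kinase phosphatases, encoded by Dusp genes, switch these kinases off by removing phosphate from both a threonine and a tyrosine of the activation loop. Sprouty and Spred proteins act further up, where they restrain the step from receptors through RAS and RAF to ERK. Many of these genes are themselves induced by ERK activity, so they form negative feedback, and in T cells they help set the strength and length of receptor signals.

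The 10 genes described here are 6 MAP kinase phosphatases (Dusp1, Dusp2, Dusp4, Dusp5, Dusp6 and Dusp10), 2 Sprouty genes (Spry1 and Spry2) and 2 Spred genes (Spred1 and Spred2), of 30119 gene names on the array. They were taken by gene name and had 12 of 39429 gene probes. Spred1 had 3 probes and each other gene had 1. Updating gene names through RefSeq (assembly GRCm38.p6) added 0 further probes. Of the 10 genes, 9 were well above background on at least 1 array, and all of those 9 on both. Spry2 was not well above background on either.

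Total RNA of sorted mouse regulatory T (Treg) cells was hybridised to 2 single-colour arrays, 1 from mice labelled Nr4a-deficient and 1 from wild-type mice, both 5 weeks old. The Nr4a genes encode nuclear receptors that T cell receptor signals induce, and the labels' protocols call the deficient mice Nr4a-TKO. The deleted parts of the genes, any Cre driver, the mouse strain, the tissue, the sort markers and the number of animals were not given in the sources used. With 1 array per group, no difference was tested, no p-value is given, and every value describes these 2 libraries. Signals are processed intensities in arbitrary units. Differences are on the log2 scale and were taken as Nr4a-deficient minus wild-type, with the 75th percentile of each array set equal. A change counted as higher or lower when it was at least 2-fold.

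The probes of the targeted genes did not all follow the label. Nr4a1 gave 80407 units in the library labelled Nr4a-deficient, against 51441 units in the wild-type library, a log2 difference of 0.86. The brighter Nr4a2 probe gave 3134 units in the library labelled Nr4a-deficient, against 1850 units in the wild-type library (log2 difference 0.98), and the other Nr4a2 probe lay at 0.68. Nr4a3 was not well above background in either library, and its 10 spots averaged 23.7 ± 8.9 units in the library labelled Nr4a-deficient, against 72.0 ± 7.3 units in the wild-type library (SD over spots). Signal from a probe outside the deleted part checks nothing. Each direction below therefore rests on the label. The Treg gene Foxp3 gave 74.5 units in the library labelled Nr4a-deficient, against 85.4 units in the wild-type library, close to the lowest signals called above background (51.1 and 73.8 units). Cd4 gave 44906 units and 48090 units in the same order.

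Dusp4 was the only one of the 9 detected genes that passed 2-fold, and it was lower in the library labelled Nr4a-deficient. It encodes a nuclear phosphatase of ERK and JNK that ERK activity induces. Its probe carries this finding, and its first 30 of 60 bases are shown.
Dusp4 probe: aataacggcggtttccgctgccagagaaga
The whole probe lies at chr8:35882045-35882104 on mm9, the genome build of the array design, on the plus strand. No annotation of that build was used, so exons and untranslated regions are not given. No run of 20 bases of this probe occurred in any other probe of the array.

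Dusp4 gave 523.7 ± 53.3 units in the library labelled Nr4a-deficient, against 2383 ± 239 units in the wild-type library, where the error is the scanner software's estimate for the single spot. After scaling this was 3.92-fold lower, a log2 difference of -1.97 with a scanner error of 0.21. Spots of 1 probe, at like brightness, gave an SD of 0.092 for a difference between single spots. The difference was thus 9.56 times the scanner error and 21.3 times the spot SD, neither of which includes variation between animals, sorts or RNA preparations.

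The raw pixels of the Dusp4 spots differed in the same direction. They come from the same single spot on each array as the processed signals, so they are not separate evidence. The mean signal was 766.4 units over 61 pixels (pixel SD 58.4) in the library labelled Nr4a-deficient and 2963 units over 66 pixels (pixel SD 194.0) in the wild-type library. The local background was 52.0 units in the library labelled Nr4a-deficient, against 54.5 units in the wild-type library, so it differed little beside the signals. Among 16298 genes above background on both arrays, 120 (0.736%) lay lower than Dusp4. Among the 1970 of them within 0.5 log2 of its brightness, 14 lay lower.

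**Figure D1:**
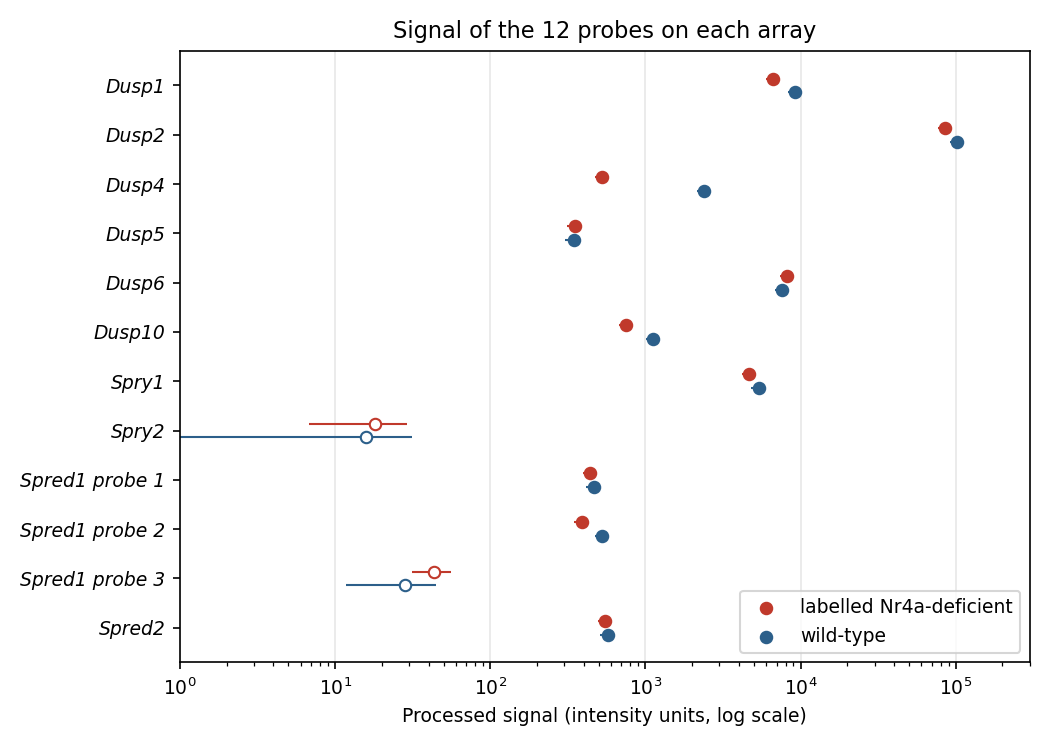
Processed signal (x axis, intensity units on a log scale) of the 12 probes of the 10 genes (y axis), with the library labelled Nr4a-deficient in red above the wild-type library in blue. Bars are the scanner software's error of the single spot, and open circles mark probes not well above background, which are Spry2 and the third Spred1 probe. The circles of Dusp4 stand apart, at 523.7 units in red and 2383 units in blue.

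As a group, 1 of the 9 detected genes was at least 2-fold lower (11.1%) and 0 were at least 2-fold higher. Over all 18540 genes detected on at least 1 array, 4.94% were lower and 4.7% higher by measured value or bound (9.63% in either direction), and with both arrays above background 3.06% were lower and 2.64% higher. The count of 1 does not set the group apart from that background. The median difference over the 9 genes was 0.019, and over all detected genes 0.003. Of the 9 genes, 4 lay below 0 and 5 above.

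The other MAP kinase phosphatases lay within 2-fold. Dusp1, a nuclear phosphatase of p38 and JNK that many stimuli induce at once, gave 6687 ± 669 units in the library labelled Nr4a-deficient, against 9225 ± 923 units in the wild-type library, a log2 difference of -0.25. Dusp10, which acts mainly on JNK and p38, gave 751.1 ± 76.1 units in the library labelled Nr4a-deficient, against 1124 ± 114 units in the wild-type library (log2 difference -0.37). Dusp6, the cytoplasmic phosphatase of ERK, gave 8228 ± 823 units in the library labelled Nr4a-deficient, against 7583 ± 758 units in the wild-type library (log2 difference 0.33). These 3 differences were 1.22, 1.77 and 1.64 times their scanner error, so each was larger than its scanner error, by less than 2 times, and larger than the spot SD.

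Dusp5, a nuclear phosphatase of ERK, gave 350.1 ± 38.3 units in the library labelled Nr4a-deficient, against 346.0 ± 41.3 units in the wild-type library (log2 difference 0.23). Dusp2, a nuclear phosphatase abundant in blood cells, gave 85581 ± 8558 units in the library labelled Nr4a-deficient, against 101545 ± 10155 units in the wild-type library. Its log2 difference of -0.03 was 0.46 times the spot SD, and that of Dusp5 was 0.997 times its scanner error. Among the ERK phosphatases, Dusp4 alone was lower past 2-fold, and the signs of Dusp5 and Dusp6 depended on the scale between the arrays. Dusp5 and Dusp6 lay slightly above 0 after scaling to the 75th percentile, and at -0.14 and -0.04 when the arrays were scaled by their spike-ins.

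Spry1, an inhibitor of signalling from receptor tyrosine kinases to ERK that also acts downstream of the T cell receptor, gave 4675 ± 468 units in the library labelled Nr4a-deficient, against 5359 ± 536 units in the wild-type library. Its log2 difference was 0.02, which is 0.28 times the spot SD. Spry2, its close relative, gave 18 ± 11.2 units in the library labelled Nr4a-deficient, against 15.7 ± 15.7 units in the wild-type library. The median of 153 negative-control spots was 12.9 units in the library labelled Nr4a-deficient, against 17.9 units in the wild-type library, and no fold is given for Spry2. Its probe consisted of T at 48.3% of its bases, the highest share of the 12 probes.

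The Spred genes encode membrane-bound inhibitors that bind neurofibromin, a protein that turns RAS off. Spred2 gave 551.5 ± 57.1 units in the library labelled Nr4a-deficient, against 573.3 ± 61.0 units in the wild-type library (log2 difference 0.16). Spred1 was read by 3 probes at different places, shown because they disagreed in sign, each with its first 30 of 60 bases.
Spred1 probe 1: gtgatatgctccagcaaacaggttaaaaat
Spred1 probe 2: cattaatattttcagtttgtttaaccactt
Spred1 probe 3: caacctcttcattgtttaatgttctggtct
On mm9, the whole probes lie at chr2:117004952-117005011, chr2:117005906-117005965 and chr2:116998491-116998550, all on the plus strand. The array design gives probe 1 a RefSeq transcript as its target and probes 2 and 3 an Ensembl transcript each. Probe 1 gave 441.6 ± 46.3 units in the library labelled Nr4a-deficient, against 466.9 ± 50.6 units in the wild-type library (log2 difference 0.14). Probe 2 gave 389.1 ± 41.1 units in the library labelled Nr4a-deficient, against 527.9 ± 56.0 units in the wild-type library (log2 difference -0.22). Each of these differences was about the size of its scanner error (0.62 and 1.04 times), so the probes gave Spred1 no direction. Probe 3 was well above background in neither library, with 43.5 ± 12 units in the library labelled Nr4a-deficient, against 28.0 ± 16.4 units in the wild-type library.

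**Figure D2:**
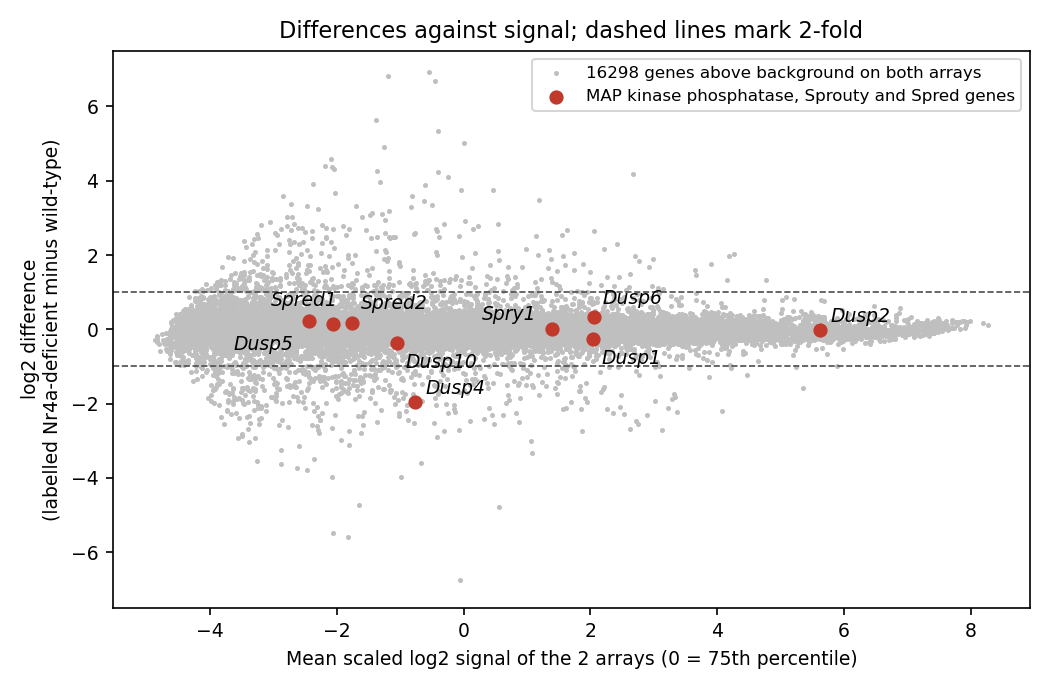
The log2 difference, labelled Nr4a-deficient minus wild-type (y axis), is plotted against the mean scaled log2 signal of the arrays (x axis, 0 is the 75th percentile). Grey dots are the 16298 genes above background on both arrays, red dots are the 9 detected genes, and dashed lines mark 2-fold. Dusp4, at -1.97, is the only red dot outside the lines.

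The scale between the arrays set the sign of several small differences, and it moved the value of Dusp4 but not its 2-fold call. After scaling, the signal of 8 detected spike-in RNAs exceeded that of the wild-type library by 0.37 ± 0.058 in the library labelled Nr4a-deficient (SD over the 8 RNAs). When these RNAs set the scale, the median of all detected genes was -0.37, and 27.1% of the genes past 2-fold were higher, against 48.8% on the scale of the 75th percentile. All 9 genes lay below 0 on that scale, as Dusp5, Dusp6, Spry1, Spred1 and Spred2 changed sign, to values from -0.35 for Spry1 to -0.04 for Dusp6. Over 11 alternatives in all, Dusp4 ranged from -2.34 to -1.78 (5.07-fold to 3.43-fold lower) and stayed past 2-fold in each. No other member passed 2-fold in any of them.

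**Figure D3:**
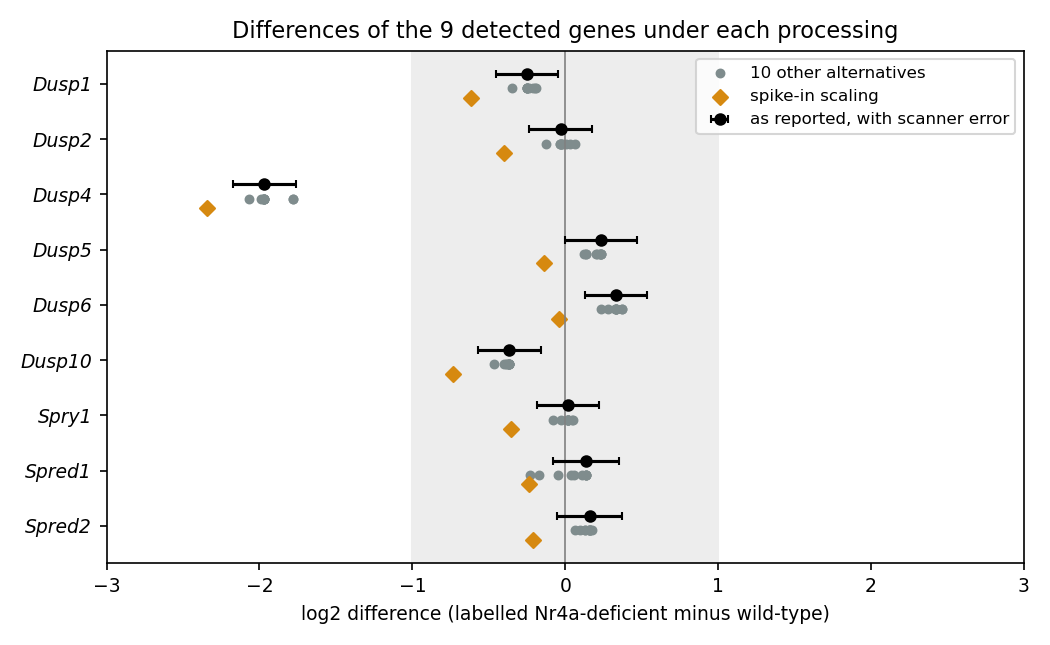
The log2 difference, labelled Nr4a-deficient minus wild-type (x axis), of the 9 detected genes (y axis). Black dots with bars give the value as reported with its scanner error, orange diamonds the value with spike-ins as the scale, grey dots the 10 other alternatives, and the grey band marks differences under 2-fold. All values of Dusp4 lie between -2.34 and -1.78, and those of the other 8 genes lie within the band.

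Other dual-specificity phosphatases were taken as a list for comparison, chosen with earlier results of these data known, so its shares are no test. Of 20 listed genes on the array, 12 were detected, 4 of them at least 2-fold higher and 0 lower (33.3% higher, against 4.7% of all detected genes), with a median difference of 0.18. Dusp9 and Dusp13 counted as detected only through the Nr4a-deficient array. With both arrays above background the count was 3 of 10, against 2.64% of all genes above background on both arrays. Each gene was read at its brightest probe, and another probe of Dusp3 lay past 2-fold lower, at -1.46. Dusp23, a small atypical phosphatase, gave 919.8 units in the library labelled Nr4a-deficient, against 193.0 units in the wild-type library (5.54-fold higher). Dusp16, which acts mainly on JNK and p38, gave 1584 units in the library labelled Nr4a-deficient, against 566.4 units in the wild-type library (3.25-fold higher). Dusp22, which acts in the T cell receptor and JNK pathways, was 2.27-fold higher at the probe that stood for it, while another of its probes lay at -0.04. Dusp9, a relative of Dusp6, was well above background on the Nr4a-deficient array alone and was at least 2.45-fold higher. On the spike-in scale, 2 of the 12 were past 2-fold, Dusp23 at 2.10 and Dusp16 at 1.33, and normexp background correction also left 2.

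At their brightest probes, the remaining inhibitors and phosphatases of the pathway stayed within 2-fold. Of 17 detected feedback inhibitors, such as RAS GTPase-activating proteins, Dok adaptors and diacylglycerol kinases, 0 were higher and 0 lower, with differences from -0.41 to 0.24. Of all detected genes, 9.63% passed 2-fold in either direction. Spry3, Spry4 and Spred3 were not well above background in either library, so among the whole Sprouty and Spred family only Spry1, Spred1 and Spred2 were detected. Of 11 other phosphatases that act on MAP kinases, 0 counted as higher or lower, and the 1 detected in a single library had a bound under 2-fold. Ptpn5, a tyrosine phosphatase of ERK and p38, lay at 0.16 at its brightest probe and at -4.16 at another probe above background on both arrays, so its probes disagreed. When the probes of a gene were averaged, 1 of the 11 was lower.

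Most genes of the cascades that these inhibitors act on lay within 2-fold. In the RAS to ERK cascade, 1 of 24 detected genes was higher and 0 lower, and the median difference was -0.002. The share higher was 4.17%, against 4.7% of all detected genes, so this count does not set the cascade apart. Mapk3, which encodes an ERK kinase, lay at -0.05, the MEK genes Map2k1 and Map2k2 at -0.06 and -0.04, and Braf, which encodes a RAF kinase, at -0.09. Hras and Nras, which encode RAS proteins, lay at 0.04 and 0.18 (-0.08 at another Nras probe). Rras2, a RAS relative, gave 840.3 units in the library labelled Nr4a-deficient, against 1901 units in the wild-type library, a log2 difference of -0.96, and it passed 2-fold on the spike-in scale (-1.33). Among the exchange factors that load RAS with GTP, Rasgrp1, the main one in T cells, lay at -0.20 (0.19 at another probe), and Sos1 was not well above background. The 1 gene past 2-fold was Rasgrp3, an exchange factor abundant in B cells, which gave 224.5 units in the library labelled Nr4a-deficient, against 110.1 units in the wild-type library (2.37-fold higher, and 0.87 on the log2 scale with the spike-ins).

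In the JNK and p38 cascades, 1 of 29 detected genes was higher and 0 lower. That share of 3.45% higher, against 4.7% of all detected genes, does not set these cascades apart either. Mapk8 and Mapk9, which encode JNK kinases, lay at -0.02 (0.07 at another Mapk8 probe) and -0.13, and Mapk14, the p38 alpha gene, at 0.12. Mapk10, a JNK gene known best from neurons, was detected on the Nr4a-deficient array alone and was at least 2.89-fold higher. The list of genes downstream of ERK was chosen with earlier results of these data known, so its shares are no test of ERK output. Of 22 detected genes of this list, 5 were higher (22.7%, against 4.7% of all detected genes) and 0 lower. Their median was 0.22 on a scale where the spike-ins lay at 0.37. The 22 genes were 17 transcripts known to be induced through ERK, 5 of them higher, and 5 kinases that ERK activates (Rps6ka and Mknk genes), 0 of them higher. On the spike-in scale 4 were higher, and Fosb lay at 0.97. The 5 were Ier3 (15.2-fold), an early response gene, Plaur (5.79-fold), the urokinase receptor, Ccnd1 (5.61-fold), a D-type cyclin, and the AP-1 genes Fosl2 (3.77-fold) and Fosb (2.53-fold). Of the 22 genes, 16 lay above 0 and 6 below, and Myc was the lowest at -0.55. Dusp4, although also known as an ERK-induced transcript, was lower past 2-fold in the same library.

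**Figure D4:**
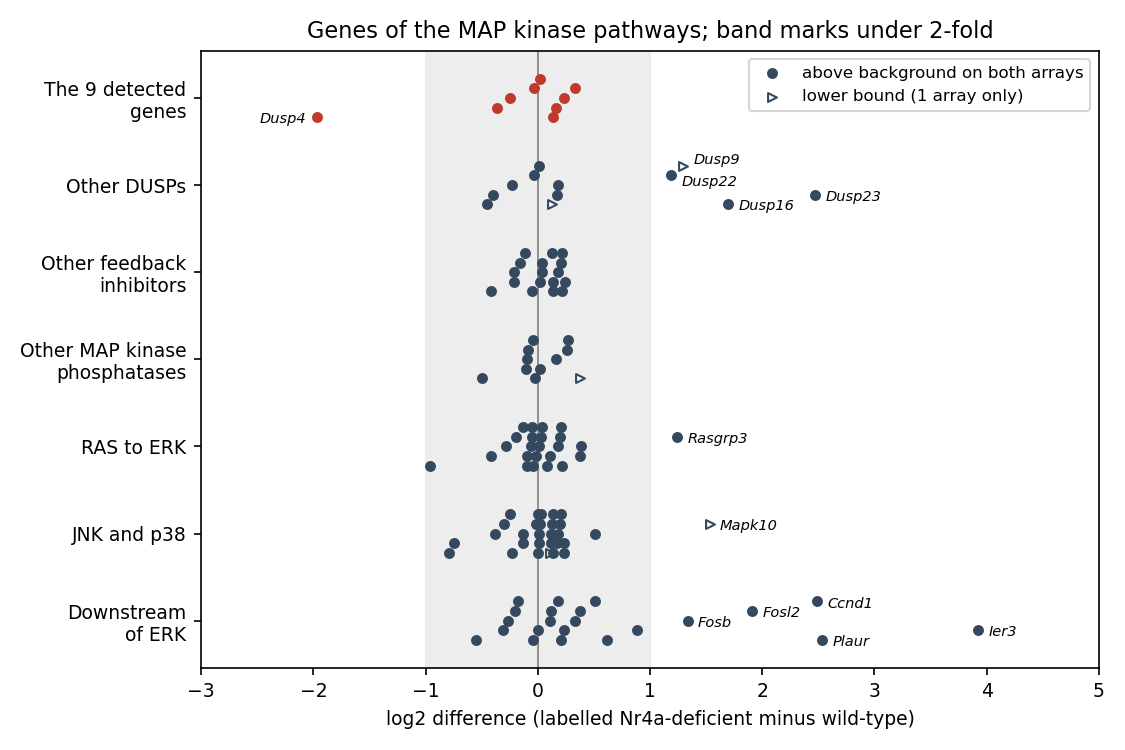
The log2 difference, labelled Nr4a-deficient minus wild-type (x axis), of each detected gene of the 9 and of 6 lists of MAP kinase pathway genes (y axis), where DUSP stands for dual-specificity phosphatase. Circles are genes above background on both arrays, triangles are lower bounds of genes above background on 1 array, and genes outside the grey band of 2-fold are named. Each gene is shown at its brightest probe. Dusp4, at -1.97, is the only gene left of the band, while Dusp23 (2.47) and Ier3 (3.92) lie to its right.

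Markers of other cell types differed as well, and their part in the values above was not tested. Of all detected genes, 4.7% were higher and 4.94% lower. The markers were chosen after their values were seen, so the counts below are no test of cell content. Sums are of processed signals before scaling, so bright probes carry them. Of 10 detected B cell markers, 3 were higher and 0 lower, with summed signals of 30578 units in the library labelled Nr4a-deficient, against 19486 units in the wild-type library, while Blk and Pax5 were not above background. Of 10 plasmacytoid dendritic cell markers, 8 were higher, and their median log2 difference was 3.76. Cox6a2 was 114-fold and Upb1 49.9-fold higher. Klk1, another of the 8, was above background on the Nr4a-deficient array alone. Siglech made up most of the summed signal and lay at 0.10 at its brightest probe and at 6.63 at another. The list gave sums of 198981 units in the library labelled Nr4a-deficient, against 166907 units in the wild-type library. Of 12 myeloid and dendritic cell markers, 3 were higher and 5 lower, with sums of 82293 units in the library labelled Nr4a-deficient, against 130676 units in the wild-type library, and Xcr1 was not above background. Of 9 markers of NK and CD8 T cells, 3 were higher, and Ncr1 was not above background. Of the 3, Klrd1 and Klrk1 were above background on the Nr4a-deficient array alone, so they counted as detected only through that array. The sums were 29034 units in the library labelled Nr4a-deficient, against 17639 units in the wild-type library. Of 5 detected erythroid and platelet markers, 4 were lower (Pf4, Ppbp, Itga2b and Gp9 were not detected), with sums of 19317 units in the library labelled Nr4a-deficient, against 80306 units in the wild-type library. Of 11 Treg and T cell markers, Il2ra and Ikzf4 were lower and the other 9 lay within 2-fold. Fewer cells of a type and less RNA per cell cannot be told apart in such bulk samples.

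Each matched promoter of the genes had a content of G and C above the median of all promoters, whose spread was not computed. RefSeq promoters (GRCm38.p6) were matched for 9 of the 10 genes, all but Dusp4. In the 250 bases before the start site, G and C made up from 56.0% (Spred2) to 70.8% (Spred1), against a median of 52.4% over 32851 promoters, and CpG pairs numbered from 12 (Spred2) to 31 (Spred1), against a median of 6. The motif that a single Nr4a receptor binds (NBRE, AAAGGTCA) was looked for on both strands and matched in 0 of the 9 promoters and in 1.34% of all promoters. The AP-1 motif TGANTCA matched in 0 of the 9 and in 6.75% of all. Only 1 fixed spelling of the serum response motif was searched, and it matched in 0 of the 9 and in 0.061% of all. Other spellings of that motif, with a run of A and T between CC and GG, were not searched. The 250 bases of Dusp5 hold such spellings, so the 0 does not mean that these promoters lack the motif. How many of all promoters hold them was not counted. The cyclic AMP response motif TGACGTCA matched in 1.55% of all promoters and in 1 of the 9, that of Dusp1, from 143 to 136 bases before the start site. It was the 1 match among the 9 promoters for the spellings that were searched. The 60 bases around that match, with the motif in capitals, lie at chr17:26508582-26508641 on the minus strand of GRCm38.p6.
Dusp1 promoter: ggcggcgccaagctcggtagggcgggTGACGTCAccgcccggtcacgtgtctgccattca
A match of letters does not show a bound site, and no match says only that these letters are not in this window.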

How the data were processed

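Per the file headers, the authors' scanner files give an intensity for each spot from Agilent Feature Extraction 10.7.3.1, with background subtraction and detrending inside the array. No normalization between arrays is recorded there. Per the labels' protocols, Cy3-labelled cRNA was made with a low-input amplification kit, which can distort rare transcripts. The authors' deposited value table holds the same intensity values with repeated spots averaged, of which 99.8% lay within 1% of the scanner values in either library, and it was used as an alternative.

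Spots flagged as outliers were left out (173 on the Nr4a-deficient array, 209 on the wild-type array), and 0 spots were saturated. Processed signals were put on the log2 scale, repeated spots were averaged, and each array's 75th percentile was subtracted (1762 units in the library labelled Nr4a-deficient, 2047 units in the wild-type library, over 39348 probes). Over 50% of a probe's spots had to carry the software's call for it to count as well above background (58.7% of probes on the Nr4a-deficient array, 55.6% on the wild-type array). A gene was read by its brightest probe above background on at least 1 array. A gene above background on 1 array got a bound, against the higher of its own dim signal and the lowest signal called above background, and both-dim genes got no fold. RefSeq's gene table gave current names to 27234 probes by accession, 3576 by symbol and 565 by synonym, and 8054 kept the name of the array design.

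Spot noise was taken from the 40 nearest in brightness of 230 probes printed repeatedly. Of 22407 pairs of their single spots, 20 differed 2-fold or more after the probe means were removed. The scanner error comes from the software's error column. The steps were tested on simulated data for this comparison. Precision is limited by having 1 array per group. The members and lists were chosen with earlier results of these data known. Named are all members, the 3 Nr4a genes, a set panel of kinase pathway genes and each pathway gene past 2-fold; some genes of the panel are not reported here. Markers and further family or pathway genes in the text were chosen after their values were seen. R 4.3.3 with limma 3.58.1 and Python 3.11.15 were used.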

Additional observations from a re-analysis of the deposited data

How the results depend on the processing

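The 11 alternatives changed the scale between arrays, the background correction, the source of the values, the probe rule, the filter on dim probes and the outlier flags. Dusp4 stayed lower past 2-fold in all 11, so the counts of members lower (1) and higher (0) did not move. The members' median moved to -0.078 with median scaling and to -0.35 under spike-in scaling. Among other dual-specificity phosphatases, 2 were higher in place of 4 with the spike-ins and with normexp background under either scaling, and 1 was lower with no filter on dim probes. In the RAS to ERK cascade, 0 were higher with the spike-ins and with normexp background under either scaling, and 1 was lower with median scaling and with the spike-ins. In the JNK and p38 cascades, 2 were lower with the spike-ins, Map3k8 at -1.16 and Mapk8ip1 at -1.12. In the same list, 2 were higher with no filter on dim probes. There, 0 were higher with normexp background and quantile normalization and under the stricter filter that asks for detection on each array. Of other phosphatases of MAP kinases, 1 was lower when probes of a gene were averaged and 1 higher with no filter. Of other feedback inhibitors, 1 was lower with no filter. The cause was not tested. Spred1 changed sign in 4 of the 11 alternatives, and Dusp2 and Spry1 in 3 each. Dusp4 rests on 1 spot per array. No paired analysis was possible because each group had 1 array.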
